A study of Homo sapiens with 8 samples.

Results

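The response of C4-2B prostate cancer cells to enzalutamide alone was described from 4 libraries of a series of 8: 2 of cells kept in enzalutamide (ENZ) at 10 uM for 7 days, and 2 of cells kept for the same time in the vehicle DMSO. C4-2B is a castration-resistant line derived from LNCaP, grown here in serum-containing medium. The other 4 libraries, of cells in the EZH2 inhibitor EPZ6438 at 1 uM (EPZ) and in both agents together for the same time (Combination, whose doses its own label does not restate), helped to estimate the spread between replicates and gave a second measure of the enzalutamide effect. Genes were tested where their mean over the 8 libraries was at least 1 FPKM (fragments per kilobase of gene, scaled to the library's total), which 11874 of 26443 rows with values reached. A gene near that limit passed partly through the group where it was high. Just inside it, SESTD1 had 1.21 and 1.41 FPKM in ENZ, against 0.949 and 0.882 FPKM in DMSO. Just outside it, DCBLD2 had 0.988 and 0.851 FPKM in ENZ, against 0.532 and 0.542 FPKM in DMSO. Whether the 2 replicates of a group were grown as separate cultures is not in the labels. The p-values therefore cover the spread of these samples and no more, and that spread may be technical.

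Enzalutamide is an antiandrogen that blocks signalling by androgens. In prostate epithelium androgens drive a secretory programme, in which kallikreins and other secreted proteins, their glycosylation and the lipid and polyamine synthesis of secreting cells are induced together, while another set of genes is held down. The classic induced genes are given first and briefly, and the rest by gene function.

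Luminal epithelial markers summed to 976 and 969 FPKM in ENZ, against 1820 and 1860 FPKM in DMSO, a sum that contains KLK3. The fall of KLK3, whose values are given below, makes up most of that difference. Of 13 tested luminal markers 5 rose and 6 fell, with a median log2 change of -0.12. Markers of leukocytes, endothelium, fibroblasts and muscle, basal epithelium and neuroendocrine cells summed to 12.8 and 10.8 FPKM in ENZ and to 10.4 and 10.8 FPKM in DMSO, with 10 and 11 of the 22 genes at 0 in ENZ and 15 and 12 in DMSO. COL1A1, of fibroblasts, and CD68, of macrophages, alone passed the filter. COL1A1 rose, with 4.47 and 3.35 FPKM in ENZ, against 2.43 and 2.24 FPKM in DMSO, and CD68 was not called, with 6.91 and 6.43 FPKM in ENZ, against 7.06 and 7.38 FPKM in DMSO. Their part in the rises of matrix and immune genes was not tested. Fewer cells of a type and less RNA per cell cannot be told apart in bulk samples. Estimated depth was 19300000 and 21800000 fragments in ENZ and 15400000 and 20300000 in DMSO. Between replicates the median absolute difference over genes was 0.119 in ENZ and 0.064 in DMSO on the log2 scale, so the treated pair was the noisier. It was 0.065 in EPZ and 0.074 in Combination. The test used below shares 1 estimate of the spread over all groups, which can be too small for ENZ and its p-values with it.

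Promoter sequence is shown first for 2 classic androgen targets and 2 growth and ion-transport genes that fell with them. All were chosen from windows with a match to the palindrome described below, so they do not show how common a match is. Whether the androgen receptor binds at these matches was not tested. The 250 bases before the RefSeq start (GRCh38.p14) were searched on both strands for the androgen response element's 6-base motif AGAACA, for the 15-base palindrome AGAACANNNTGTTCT with up to 3 mismatches, and for the GC box GGGCGG. The palindrome contains the 6-base motif, so both can overlap. Capitals mark palindrome matches, which in KLK3 and STK39 include the 6-base motif.
KLK3 (chr19:50854665-50854914, plus strand): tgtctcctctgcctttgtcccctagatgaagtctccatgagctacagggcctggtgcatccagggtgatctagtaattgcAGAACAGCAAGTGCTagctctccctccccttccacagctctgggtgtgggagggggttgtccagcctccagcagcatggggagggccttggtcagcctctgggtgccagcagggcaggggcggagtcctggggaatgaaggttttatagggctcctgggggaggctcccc
KLK2 (chr19:50873189-50873438, plus strand): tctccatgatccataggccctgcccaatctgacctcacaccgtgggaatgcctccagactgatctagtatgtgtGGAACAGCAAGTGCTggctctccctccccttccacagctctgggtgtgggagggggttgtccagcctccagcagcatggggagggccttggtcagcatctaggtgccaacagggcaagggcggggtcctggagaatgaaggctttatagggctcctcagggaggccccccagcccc
STK39 (chr2:168247596-168247845, minus strand): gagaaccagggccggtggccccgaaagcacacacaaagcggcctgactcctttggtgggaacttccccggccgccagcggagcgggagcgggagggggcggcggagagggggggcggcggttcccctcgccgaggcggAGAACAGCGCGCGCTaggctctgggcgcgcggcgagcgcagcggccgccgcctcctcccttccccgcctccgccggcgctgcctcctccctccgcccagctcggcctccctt
IGF1 (chr12:102481748-102481997, minus strand): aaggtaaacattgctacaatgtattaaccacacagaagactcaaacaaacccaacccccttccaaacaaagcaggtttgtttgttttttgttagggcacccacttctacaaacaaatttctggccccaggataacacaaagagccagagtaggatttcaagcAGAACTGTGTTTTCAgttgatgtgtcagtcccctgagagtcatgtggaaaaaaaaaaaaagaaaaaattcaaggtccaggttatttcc
The match began 170 bases before the start in KLK3, 176 in KLK2, 112 in STK39 and 88 in IGF1, with 2, 3, 3 and 3 mismatches in that order. A palindrome match was found in 12 of the 126 windows of genes at least 2-fold lower (9.52%), in 7 of the 202 windows of genes at least 2-fold higher (3.47%) and in 425 of 9352 windows of all tested genes (4.54%). The 6-base motif was in 5.56% of the windows of genes at least 2-fold lower, 6.93% of those at least 2-fold higher and 7.06% of all, and the GC box in 58.7%, 62.4% and 69.2%. These shares are descriptions without a test.

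A gene is called changed at a Benjamini-Hochberg adjusted p under 0.05 over all tested genes, in limma's two-sided test on log2(FPKM + 1), a scale that understates the change of low genes. By this rule 6733 genes (56.7%) changed, 3316 higher (27.9%) and 3417 lower (28.8%) in ENZ, and the ENZ and DMSO values did not overlap for 77.1% of genes. Small changes made up most of these calls: 303 genes were at least 2-fold higher (2.55%) and 168 at least 2-fold lower (1.41%), and 32 in each direction changed at least 4-fold. These and all later 2-fold counts are on the log2(FPKM + 1) scale. Genes at least 2-fold higher had a median of 6.73 FPKM in ENZ and 1.79 FPKM in DMSO, so most were low in the vehicle, which choosing genes by their rise favours. Those at least 2-fold lower had a median of 4.48 FPKM in ENZ and 15.4 FPKM in DMSO. Among all calls, the genes that rose had a median level of 5.67 FPKM over the 4 libraries and those that fell one of 22.5 FPKM, against 9.64 FPKM for all tested genes. Their lengths differed too, with a median of 5735 exonic bases for genes that rose, 4267 for those that fell and 4957 for all. What part level and length have in the counts by gene function below was not tested.

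Classic targets gave the check on treatment. KLK3, which encodes prostate-specific antigen, had 225 and 223 FPKM in ENZ, against 978 and 1015 FPKM in DMSO, although it shares near-identical sequence with KLK2. Both ENZ values were below both DMSO values, a log2 change of -2.15 ± 0.05 (SE), adjusted p = 2.6e-09. The protease TMPRSS2 had 19.7 and 20.04 FPKM in ENZ, against 92.3 and 90.1 FPKM in DMSO. Of 47 tested androgen-induced genes 41 fell and 4 rose, and all 11 tested androgen-repressed genes rose, with median log2 changes of -1.56 and 1.40. Over all tested genes 28.8% fell and 27.9% rose. Both lists were chosen with earlier results of these data known, so their counts are no independent check on treatment. The 4 induced genes that went the other way include ACPP, which encodes prostatic acid phosphatase and had 8.97 and 8.83 FPKM in ENZ, against 1.61 and 1.97 FPKM in DMSO, and STEAP2, a metalloreductase gene, with 113 and 133 FPKM in ENZ, against 73.98 and 73.7 FPKM in DMSO. EZH2, the target of the other agent of the series, had 23.4 and 26.3 FPKM in ENZ, against 26.2 and 25.4 FPKM in DMSO, and its groups overlapped (adjusted p = 0.54). MKI67, the proliferation antigen, had 36.00 and 38.6 FPKM in ENZ, against 32.5 and 33.7 FPKM in DMSO, not called at adjusted p = 0.093.

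Outside both androgen lists, the steepest rise was that of PLA2G2A, a secreted phospholipase A2 that releases fatty acids from membranes and acts on bacterial membranes. It had 103 and 96.6 FPKM in ENZ, against 0.565 and 0.907 FPKM in DMSO. ENZ libraries stood far above DMSO libraries, with a log2 change of 5.86 ± 0.12 (SE), adjusted p = 1.9e-09. COLEC12, a scavenger receptor of the collectin family, had 79.5 and 76.3 FPKM in ENZ, against 6.29 and 6.45 FPKM in DMSO, and SLPI, a secreted inhibitor of leukocyte proteases, had 189.9 and 167 FPKM in ENZ, against 25.02 and 32.2 FPKM in DMSO. Neither overlapped between groups, which the choice of these leading genes required, and they rose by 3.42 and 2.61 on the log2 scale. LUZP2, a leucine zipper protein gene, had 24.5 and 27.8 FPKM in ENZ, against 2.95 and 2.52 FPKM in DMSO. SYTL2, an effector of Rab27 in the docking of secretory vesicles, had 24.5 and 26.9 FPKM in ENZ, against 2.80 and 2.88 FPKM in DMSO. Both were low in DMSO and several-fold higher in both ENZ libraries. MATN2, a matrix adaptor protein gene, and CBLN2, which encodes a secreted synapse organizer, rose by 2.77 and 2.66 on the log2 scale. LRRN1, MYLK, AIDA, ATP1B1 and CDR1 were also among the 12 highest, but each overlaps an exon of a gene on the other strand, and the library kit named in the labels does not mark strand.

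Among the steepest falls, ST6GALNAC1 encodes the sialyltransferase that makes the sialyl-Tn antigen on mucin-type sugar chains. It had 2.22 and 2.20 FPKM in ENZ, against 69.04 and 77.2 FPKM in DMSO. The ENZ values were nearly equal and far below DMSO, with a log2 change of -4.53 ± 0.07 (SE), adjusted p = 8.5e-10. DPP4, a cell-surface dipeptidase, had 2.57 and 2.65 FPKM in ENZ, against 34.3 and 35.4 FPKM in DMSO, a log2 change of -3.31. S100P, a calcium-binding protein gene, had 4.38 and 3.42 FPKM in ENZ, against 44.6 and 38.2 FPKM in DMSO, and ZNF385B, a zinc finger gene, had 0.587 and 0.561 FPKM in ENZ, against 11.8 and 11.5 FPKM in DMSO. No ENZ value of these genes reached a DMSO value, which their choice also required. STK39, whose promoter window is printed above, encodes a kinase that regulates cation-chloride cotransporters. It had 10.8 and 11.3 FPKM in ENZ, against 65.4 and 65.2 FPKM in DMSO, a log2 change of -2.46 ± 0.06 (SE), adjusted p = 2.8e-09. CHRNA2, a nicotinic receptor subunit gene, NPPC, the precursor of C-type natriuretic peptide, and AFF3, a nuclear protein gene, all stood under 1 FPKM in both ENZ libraries and between 6.43 and 10.5 FPKM in DMSO. TUBA3E fell as well, by 2.23 on the log2 scale, but belongs to a family of near-identical tubulin genes and is uncertain.

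**Figure D1:**
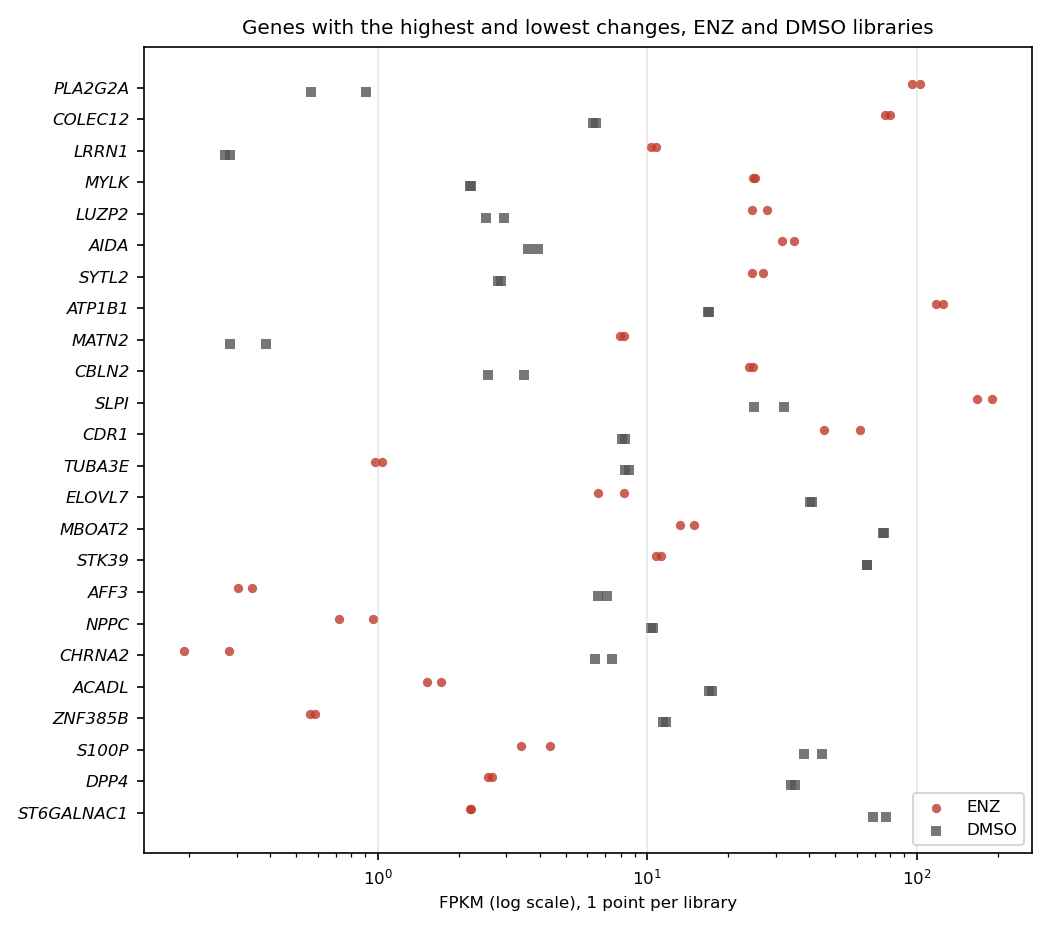
FPKM on a log axis in each library (circles, ENZ; squares, DMSO; 2 per group) for the genes with the highest and lowest log2 changes outside the androgen lists. Only called genes whose groups do not overlap were eligible, so ENZ and DMSO points lie apart in every row by choice. Rows run from PLA2G2A at the top (103 and 96.6 FPKM in ENZ) to ST6GALNAC1 at the bottom (69.0 and 77.2 FPKM in DMSO). AIDA, ATP1B1, CDR1, LRRN1 and MYLK overlap a gene on the other strand.

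Glycosylation genes of the secretory pathway split by enzyme. Of 39 tested mucin-type, sialyl and fucosyl transferases 18 rose and 8 fell, with a median log2 change of 0.12. Besides ST6GALNAC1, GALNT7, which extends sites already carrying a sugar, fell to 20.8 and 24.2 FPKM in ENZ, against 50.6 and 50.9 FPKM in DMSO. GALNT3, which adds the first sugar to mucin-type sites, had 21.95 and 24.6 FPKM in ENZ, against 9.80 and 8.97 FPKM in DMSO, and ST3GAL1, which caps the core disaccharide with sialic acid, had 102 and 101 FPKM in ENZ, against 55.9 and 55.3 FPKM in DMSO. Both rose, by 1.22 and 0.86 on the log2 scale, so the sialyltransferases ST3GAL1 and ST6GALNAC1 went in opposite directions. In the supply of sugar nucleotides, 7 of 29 tested genes rose and 13 fell, but 3 rose without the first or the second DMSO library and 4 without the first ENZ library. UAP1, which makes UDP-N-acetylglucosamine, had 46.3 and 49.9 FPKM in ENZ, against 144 and 145 FPKM in DMSO, a log2 change of -1.57 ± 0.06 (SE), adjusted p = 4.8e-08.

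Coat protein and Golgi transport genes fell in 26 of 47 cases and rose in 7, or 4 without the first DMSO library, with ARF1, a GTPase of Golgi coats, at 230.0 and 222 FPKM in ENZ, against 327 and 320.1 FPKM in DMSO. After quantile normalization 15 fell and 13 rose, so this balance depended on scaling. For 44 genes of folding and stress in the endoplasmic reticulum, 15 fell and 4 rose. After quantile normalization 7 fell and 16 rose, which turns the direction round, and without the second DMSO library 9 fell. CALR, the most abundant of them, had 672 and 642 FPKM in ENZ, against 627 and 621 FPKM in DMSO, a difference that did not pass the test (adjusted p = 0.25). In the 26 tested exocytosis and Rab effector genes 8 rose and 9 fell. RAB3B, a secretory vesicle GTPase, fell to 1.98 and 2.02 FPKM in ENZ, against 8.09 and 9.07 FPKM in DMSO, the opposite direction to SYTL2.

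Lipid enzymes divided within single families. In fatty acid synthesis, elongation and desaturation 9 of 24 tested genes rose and 12 fell. ELOVL7, an elongase of long-chain fatty acids, had 6.55 and 8.22 FPKM in ENZ, against 40.1 and 40.7 FPKM in DMSO, and ELOVL5, which elongates polyunsaturated chains, had 42.4 and 47.2 FPKM in ENZ, against 142 and 146 FPKM in DMSO. ELOVL6, which elongates saturated chains of 16 carbons, went the other way and had 7.42 and 8.35 FPKM in ENZ, against 1.53 and 1.93 FPKM in DMSO. All 3 were separated from DMSO, with log2 changes of -2.31, -1.66 and 1.70. SCD5, a stearoyl-CoA desaturase, rose to 4.94 and 5.34 FPKM in ENZ, against 0.770 and 0.620 FPKM in DMSO. ACSL3, which activates fatty acids on lipid droplets, had 38.2 and 41.1 FPKM in ENZ, against 148 and 153 FPKM in DMSO, a log2 change of -1.90 ± 0.06 (SE), adjusted p = 2.1e-08. MBOAT2, a lysophospholipid acyltransferase, had 13.3 and 14.9 FPKM in ENZ, against 75.3 and 75.8 FPKM in DMSO. FASN, the fatty acid synthase, named after its value was seen, had 258 and 215 FPKM in ENZ, against 545 and 540.4 FPKM in DMSO, and with ACSL3, ELOVL5 and ELOVL7 made up the 4 list members at least 2-fold lower. ACSL3, and among genes below GNMT, SLC43A1, BMPR1B, TRPM8, KCNN2 and ABCC4, as well as UAP1 above, also stand in the androgen-induced list.

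Of 38 tested genes of fatty acid oxidation and peroxisomes 13 rose and 11 fell, shares near those of all tested genes. ACADL, the long-chain acyl-CoA dehydrogenase, fell to 1.52 and 1.71 FPKM in ENZ, against 17.4 and 16.9 FPKM in DMSO, whereas ACADVL, the very-long-chain enzyme and the most abundant of the list, rose to 277 and 253 FPKM in ENZ, against 189 and 192 FPKM in DMSO. Cholesterol genes fell in 18 of 33 cases and rose in 6. FDFT1, which makes squalene, had 49.5 and 50.9 FPKM in ENZ, against 93.4 and 90.1 FPKM in DMSO. ABCG1, which exports cholesterol, rose to 5.90 and 5.57 FPKM in ENZ, against 2.36 and 1.75 FPKM in DMSO. Among phospholipases and lipid remodelling genes 16 of 40 rose and 8 fell, or 5 without the second DMSO library, and MGLL, the monoacylglycerol lipase, fell to 1.83 and 1.44 FPKM in ENZ, against 5.18 and 5.78 FPKM in DMSO.

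Sugar and energy metabolism moved mostly down. Of 34 tested genes of glycolysis and the pentose phosphate pathway 25 fell and 3 rose, with a median log2 change of -0.44. HK2, the hexokinase of many tumours, had 6.91 and 6.83 FPKM in ENZ, against 20.8 and 20.3 FPKM in DMSO. LDHA, which turns pyruvate into lactate, had 112 and 118 FPKM in ENZ, against 241 and 243 FPKM in DMSO. GAPDH, the most abundant member, had 1104 and 1025 FPKM in ENZ, against 1395 and 1486 FPKM in DMSO. In each of these both ENZ values lay below both DMSO values, with log2 changes of -1.45, -1.07 and -0.44. ENO2, the neuronal enolase, was an exception at 8.27 and 8.20 FPKM in ENZ, against 1.90 and 1.67 FPKM in DMSO. In the citric acid cycle and pyruvate entry 21 of 34 fell and 3 rose, and DLAT, a subunit of pyruvate dehydrogenase, had 23.6 and 26.02 FPKM in ENZ, against 44.2 and 44.3 FPKM in DMSO, though an exon overlaps a gene on the other strand. Among nuclear-encoded respiratory chain subunits 51 of 72 fell and 1 rose. The members moved little, with a median log2 change of -0.30, and NDUFB10 of complex I had the steepest fall at 197 and 177 FPKM in ENZ, against 324 and 307 FPKM in DMSO. Quantile normalization left 13 falls in the citric acid cycle and 22 in the respiratory chain, beside 8 and 7 rises.

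Small-molecule synthesis followed. All 12 calls among 21 tested polyamine genes were falls, though 2 rose after quantile normalization, with the replicate block or without the second ENZ library, and 1 without the first. SRM, spermidine synthase, had 142 and 128 FPKM in ENZ, against 284 and 308 FPKM in DMSO, and SAT1, which acetylates polyamines for export and breakdown, had 19.8 and 19.7 FPKM in ENZ, against 43.3 and 45.7 FPKM in DMSO. The enzyme of synthesis and that of catabolism were both lower, with log2 changes of -1.13 and -1.13. Of 43 tested nucleotide and one-carbon genes 31 fell and 4 rose, or 2 without the first or the second DMSO library. GNMT, which consumes S-adenosylmethionine and glycine, had 5.44 and 4.94 FPKM in ENZ, against 21.4 and 21.6 FPKM in DMSO, a log2 change of -1.86 ± 0.07 (SE), adjusted p = 4.8e-08. IMPDH1, of guanine nucleotide synthesis, had 42.2 and 37.3 FPKM in ENZ, against 76.5 and 73.4 FPKM in DMSO. Amino acid transporters and ATF4 targets fell in 21 of 42 cases and rose in 7. SLC43A1, a transporter of large neutral amino acids, fell to 29.9 and 28.4 FPKM in ENZ, against 104 and 107 FPKM in DMSO, and PHGDH, the entry to serine synthesis, rose to 321 and 288 FPKM in ENZ, against 226 and 224 FPKM in DMSO.

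Genes of ribosome production mostly fell. All 66 calls among 75 tested mitochondrial ribosomal protein genes were falls, and so were all 58 among 66 nucleolar and ribosome biogenesis genes. NCL, the abundant nucleolar protein nucleolin, had 323 and 344 FPKM in ENZ, against 519.7 and 497 FPKM in DMSO, and BOP1, a factor of large-subunit processing, had 54.3 and 48.4 FPKM in ENZ, against 97.4 and 88.9 FPKM in DMSO. The count of nucleolar genes that rose was 1 after quantile normalization and 1 without the second ENZ library. The groups did not overlap for NCL or BOP1, but neither change reached 2-fold. Median log2 changes were -0.41 for the mitochondrial ribosomal proteins and -0.44 for the nucleolar genes, and in single ENZ libraries the mitochondrial median was -0.41 and -0.40 against the mean of DMSO. The 2 DMSO libraries differed by a median of 0.011 over the same genes.

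Translation factors fell in 40 of 47 cases and rose in 2. EIF4EBP1, a repressor of cap-dependent translation, was the steepest fall with 69.1 and 70.7 FPKM in ENZ, against 134 and 139 FPKM in DMSO, and EEF2, which moves the ribosome along, had 1767 and 1596 FPKM in ENZ, against 2146 and 2084 FPKM in DMSO, a call lost after quantile normalization. Cytosolic ribosomal protein genes fell in 64 of 81 cases and rose in 1, with a median log2 change of -0.31; these genes share reads with pseudogenes and are uncertain singly. Of 39 proteasome subunit genes 32 fell, while PSME1 and PSME2, of the activator linked to antigen processing, rose. PSME1 had 52.4 and 54.97 FPKM in ENZ, against 36.5 and 37.9 FPKM in DMSO, and PSME2 overlaps a gene on the other strand and was not called without the second DMSO library. Aminoacyl-tRNA synthetases fell in 18 of 37 cases and rose in 1. Quantile normalization left 51 falls among nucleolar genes and 49 among mitochondrial ribosomal proteins. It left 20 among translation factors, 16 among proteasome subunits and 23 among cytosolic ribosomal proteins, where 11 then rose. Splicing factors had 37 falls and 8 rises in 64 genes as deposited, 12 falls and 16 rises after that scaling, and 22 falls and 5 rises without the first DMSO library.

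MYC, a regulator of ribosome production, had 43.4 and 41.97 FPKM in ENZ, against 76.5 and 74.96 FPKM in DMSO. The ENZ values lay below DMSO, with a log2 change of -0.81 ± 0.05 (SE), adjusted p = 2.6e-06. Chaperone genes fell in 34 of 42 cases and rose in 3. HSPB1, a small heat shock protein, had 299 and 254 FPKM in ENZ, against 523 and 537 FPKM in DMSO, and HSPA8, the constitutive HSP70, had 777 and 831 FPKM in ENZ, against 963 and 994.9 FPKM in DMSO. HSPA8 fell as deposited but turned to 0.11 on the log2 scale after quantile normalization, where it was not called. The FKBP5 gene, a classic target and HSP90 co-chaperone, is in this list as well.

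**Figure D2:**
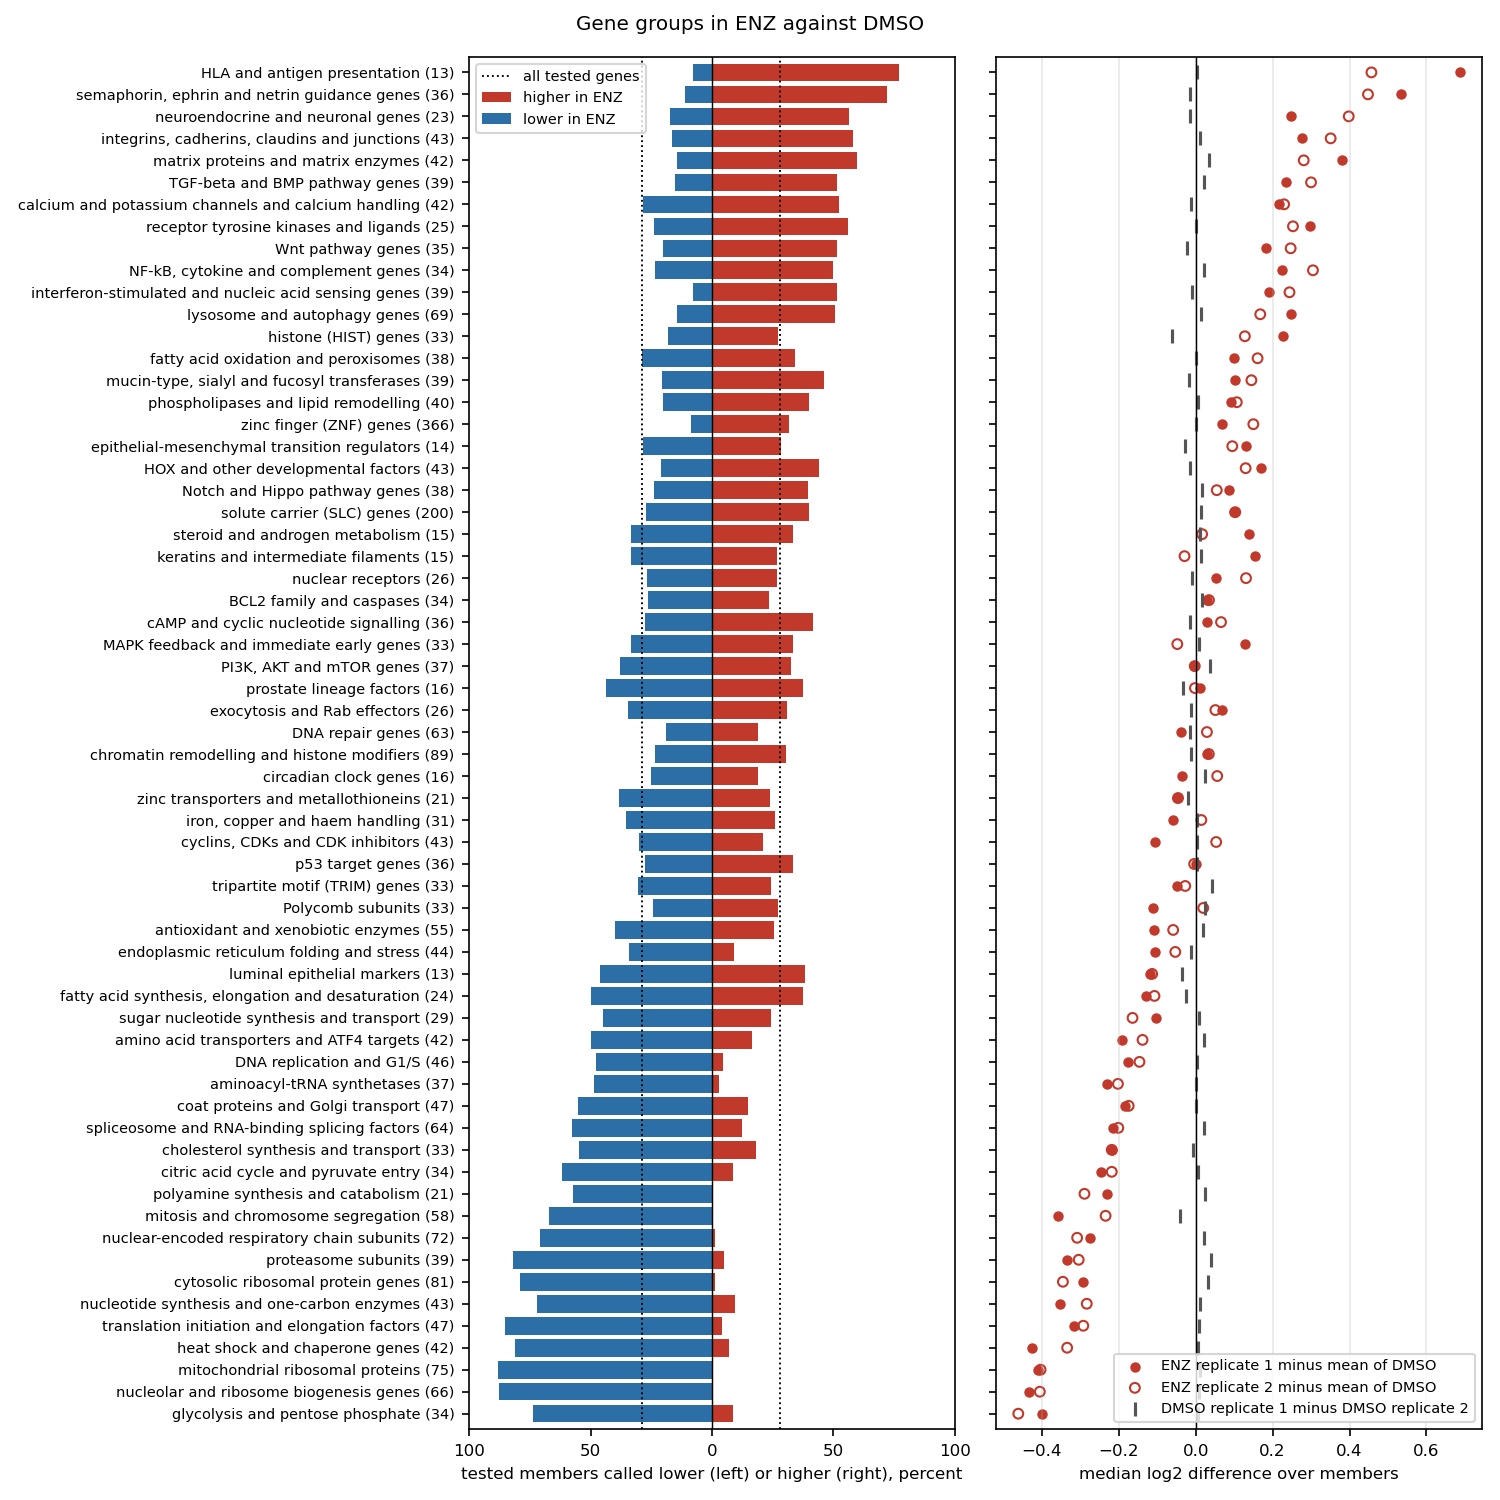
Gene groups ordered by median log2 change, with the number of tested members in brackets. Left, percent of members called higher (right of 0) or lower (left of 0) in ENZ, with dotted lines at the 27.9% and 28.8% of all tested genes; right, median log2 difference of each ENZ library from the mean of DMSO and of the first from the second DMSO library. Guidance and antigen presentation genes lie at the top, ribosome, nucleolar and glycolysis genes at the bottom, and the DMSO differences stay near 0.

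Genes of mitosis and replication fell by small steps. All 39 calls among 58 tested genes of mitosis were falls, with a median log2 change of -0.28. After quantile normalization 28 fell and 1 rose. In the first and the second ENZ library the median was -0.36 and -0.23 against the mean of DMSO. PLK1, a kinase of mitotic entry, had 46.7 and 44.8 FPKM in ENZ, against 89.7 and 91.1 FPKM in DMSO, and CDC20, which switches on the ubiquitin ligase that ends mitosis, had 82.9 and 78.6 FPKM in ENZ, against 134 and 134 FPKM in DMSO. Neither gene overlapped between groups, and they fell by 0.97 and 0.73 on the log2 scale, in the same libraries in which MKI67 was not called. Of 46 replication and G1/S genes 22 fell and 2 rose, but after quantile normalization 6 fell, and 14 fell without the second DMSO library. Of 43 cyclins, CDKs and CDK inhibitors 9 rose and 13 fell, or 7 without the first DMSO library, and of 63 DNA repair genes 12 rose and 12 fell, with 7 falls after quantile normalization and 7 rises without the second ENZ library. CCNG2, an atypical cyclin associated with arrest, rose to 8.30 and 9.56 FPKM in ENZ, against 3.01 and 2.998 FPKM in DMSO. CDKN1A, the p21 inhibitor, fell to 22.6 and 20.6 FPKM in ENZ, against 33.8 and 32.5 FPKM in DMSO. In the p53 target list as a whole 12 of 36 rose and 10 fell, near the background on either side.

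Growth factor genes changed direction along the insulin-like growth factor axis. IGF1, the ligand whose promoter window is printed above, had 0.578 and 0.669 FPKM in ENZ, against 4.37 and 4.67 FPKM in DMSO. IGF1R, its receptor, had 0.853 and 0.840 FPKM in ENZ, against 5.30 and 5.11 FPKM in DMSO, and IRS1, the docking protein below the receptor, had 0.968 and 0.930 FPKM in ENZ, against 2.39 and 2.45 FPKM in DMSO. All 3 were lower in both ENZ libraries, with log2 changes of -1.77, -1.75 and -0.81. IGFBP3, which binds the ligand outside the cell, went the other way with 21.3 and 21.6 FPKM in ENZ, against 3.45 and 3.45 FPKM in DMSO, a log2 change of 2.34 ± 0.06 (SE), adjusted p = 5.5e-09. Of 25 tested receptor tyrosine kinase and ligand genes 14 rose and 6 fell, where 27.9% and 28.8% of all tested genes did. The list has 56 members, and some passed the filter partly through the group where they are high. Without the filter 20 of 52 rose and 7 fell, with a median log2 change of 0.050 against 0.27 in the tested 25. PDGFA, a platelet-derived growth factor gene, rose to 6.86 and 5.72 FPKM in ENZ, against 2.36 and 2.39 FPKM in DMSO. ERBB2 rose by 1.16 on the log2 scale but overlaps genes on the other strand. DUSP4, a phosphatase that restrains ERK, fell to 1.77 and 1.56 FPKM in ENZ, against 10.3 and 10.3 FPKM in DMSO, and INPP4B, a phosphatase of phosphoinositides, fell to 0.592 and 0.590 FPKM in ENZ, against 3.35 and 3.74 FPKM in DMSO. DEPTOR, an inhibitor of mTOR, rose to 13.1 and 15.3 FPKM in ENZ, against 4.30 and 4.15 FPKM in DMSO. Neither the 33 MAPK feedback genes (11 rose, 11 fell) nor the 37 PI3K, AKT and mTOR genes (12 rose, 14 fell) stood far from the background.

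Of the Wnt and TGF-beta pathway genes that passed the filter, more rose than fell. Some passed partly through the group where they are high. In the Wnt list 18 of the 35 tested rose and 7 fell. Dropping the filter gave 20 higher and 6 lower in 53, and the median log2 change was 0.12, against 0.25 in the tested 35. WNT5A, a ligand of non-canonical signalling, had 5.79 and 6.27 FPKM in ENZ, against 0.633 and 0.497 FPKM in DMSO, and WLS, which carries Wnt proteins to the surface, had 8.90 and 8.03 FPKM in ENZ, against 2.27 and 2.36 FPKM in DMSO. Both were low in DMSO and higher in both ENZ libraries, whereas CTNNB1, which encodes beta-catenin, had 95.5 and 100.2 FPKM in ENZ, against 85.7 and 86.3 FPKM in DMSO, a call lost without either one of the DMSO libraries. Of 39 tested TGF-beta and BMP genes 20 rose and 6 fell, or 3 without the first DMSO library. Dropping the filter gave 20 higher and 5 lower in 51, and the median log2 change was 0.12, against 0.30 in the tested 39. Quantile normalization left 18 of the 39 higher and 7 lower, and brought their median to 0.093. BAMBI, a decoy receptor, had 28.02 and 30.02 FPKM in ENZ, against 6.17 and 5.86 FPKM in DMSO, a log2 change of 2.10 ± 0.07 (SE), adjusted p = 2.2e-08. BMPR1B, a receptor for bone morphogenetic proteins, fell to 0.384 and 0.363 FPKM in ENZ, against 2.91 and 3.17 FPKM in DMSO. GDF15, a stress-induced ligand of the superfamily, fell to 26.3 and 19.00 FPKM in ENZ, against 67.5 and 66.5 FPKM in DMSO. Among Notch and Hippo genes NOTCH3 rose to 40.7 and 33.96 FPKM in ENZ, against 16.5 and 14.98 FPKM in DMSO and HES6, a factor opposing HES1, fell to 38.5 and 34.3 FPKM in ENZ, against 106 and 95.9 FPKM in DMSO. In that list 15 of 38 rose and 9 fell, but 9 rose and 10 fell after quantile normalization.

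Channel and calcium genes included large changes in both directions, with 22 of 42 higher and 12 lower, or 7 lower without the first DMSO library. CAMK2N1, an inhibitor of CaM kinase II and one of the androgen-repressed list, had 183 and 189.9 FPKM in ENZ, against 19.6 and 20.9 FPKM in DMSO. ATP2B1, a plasma membrane calcium pump, had 44.4 and 49.3 FPKM in ENZ, against 12.5 and 12.1 FPKM in DMSO. TRPM8, the cold-activated channel of prostate epithelium, had 0.157 and 0.204 FPKM in ENZ, against 2.90 and 3.23 FPKM in DMSO, and KCNN2, a calcium-activated potassium channel, had 0.773 and 1.05 FPKM in ENZ, against 4.74 and 5.27 FPKM in DMSO. The first pair was higher and the second pair lower in both ENZ libraries, with log2 changes of 3.14, 1.84, -1.78 and -1.65. In 8 of the 42 the change reached 2-fold, 4 in each direction. Some of the 42 passed the filter partly through the group where they are high. Without the filter 21 of 58 rose and 10 fell, with a median log2 change of 0.077 against 0.27 in the 42.

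Of the adhesion, matrix and guidance genes that passed the filter, most rose. Some passed partly through the group where they are high. With no filter 31 of 62 guidance genes rose and 4 fell, with a median log2 change of 0.26. In the same setting 32 of 82 matrix genes rose and 8 fell (median 0.12), and 26 of 62 junction genes rose and 8 fell (median 0.099). Of 36 tested semaphorin, ephrin and netrin genes 26 rose (72.2%) and 4 fell, with a median log2 change of 0.50, against 0.0049 for all tested genes. NRP1, a co-receptor of semaphorins and of VEGF, had 15.3 and 17.5 FPKM in ENZ, against 4.10 and 4.07 FPKM in DMSO. SEMA3C, a secreted semaphorin, had 15.4 and 17.7 FPKM in ENZ, against 4.87 and 5.76 FPKM in DMSO. EFNB2, a membrane-bound ligand of Eph receptors, had 5.90 and 5.25 FPKM in ENZ, against 1.76 and 1.90 FPKM in DMSO. Each was at least 2-fold higher and separated from DMSO. Rises were found among ligands and receptors alike, and the 4 falls were the receptors UNC5A, EPHA6, EPHA2 and EPHA3, of which EPHA3 is named after its value was seen. PLXNB2, the most abundant of the list, had 88.1 and 74.2 FPKM in ENZ, against 76.5 and 75.8 FPKM in DMSO, with overlapping groups. Guidance genes also stood at 25 rises and 4 falls after quantile normalization.

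Of 42 tested matrix protein and enzyme genes 25 rose and 6 fell, or 3 without the second DMSO library and in the fit of ENZ and DMSO alone, and 9 were at least 2-fold higher. TIMP2, an inhibitor of matrix metalloproteinases, had 53.2 and 47.9 FPKM in ENZ, against 14.5 and 13.8 FPKM in DMSO. THBS1, the matricellular protein thrombospondin 1, fell to 1.60 and 1.65 FPKM in ENZ, against 8.87 and 9.44 FPKM in DMSO. Both differences were far larger than the gap between replicates, with log2 changes of 1.77 and -1.95. Among integrins, cadherins, claudins and junction genes 25 of 43 rose and 7 fell, or 4 without the second DMSO library. NCAM2, a neural adhesion molecule, had 68.03 and 73.3 FPKM in ENZ, against 17.5 and 18.7 FPKM in DMSO. ITGB4, the hemidesmosome integrin, had 9.14 and 7.29 FPKM in ENZ, against 1.85 and 1.85 FPKM in DMSO, and ITGA3, a laminin-binding integrin, had 6.08 and 5.57 FPKM in ENZ, against 1.73 and 2.04 FPKM in DMSO. Desmosome and tight junction genes were among the falls: DSG2, a desmosomal cadherin, had 37.7 and 41.5 FPKM in ENZ, against 67.6 and 66.7 FPKM in DMSO, and TJP1, the scaffold ZO-1, had 19.2 and 20.9 FPKM in ENZ, against 31.8 and 32.98 FPKM in DMSO. CDH1, the epithelial cadherin, rose to 159.8 and 166 FPKM in ENZ, against 115 and 113 FPKM in DMSO, and FN1, fibronectin, rose to 52.7 and 53.1 FPKM in ENZ, against 18.7 and 19.8 FPKM in DMSO. SNAI2, a factor of epithelial-mesenchymal transition, fell to 0.0985 and 0.174 FPKM in ENZ, against 1.35 and 1.47 FPKM in DMSO; 4 of 14 tested regulators of that transition rose and 4 fell. KRT19, a luminal keratin, fell to 1.69 and 1.12 FPKM in ENZ, against 9.30 and 9.68 FPKM in DMSO.

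Neuronal genes rose in 13 of 23 tested cases and fell in 4, but the list has 70 members. With no filter 14 of 64 rose and the median log2 change was 0.014, and those under the filter include the neuroendocrine markers CHGA, SYP and INSM1. SYT4, a synaptotagmin, had 29.3 and 33.4 FPKM in ENZ, against 10.4 and 10.7 FPKM in DMSO. DDC, the decarboxylase that makes dopamine and one of the androgen-repressed list, had 112 and 118 FPKM in ENZ, against 45.4 and 40.7 FPKM in DMSO. Both were higher in both ENZ libraries. GRIN3A, a glutamate receptor subunit, fell to 0.427 and 0.443 FPKM in ENZ, against 3.78 and 3.96 FPKM in DMSO. In HOX and other developmental factors 19 of 43 rose and 9 fell, or 5 without the first DMSO library. HOXA13 and HOXC9 rose by 1.22 and 1.17 on the log2 scale, and HOXB13, the abundant prostate member, had 129 and 125 FPKM in ENZ, against 103 and 105 FPKM in DMSO, a rise of 0.29. Of 26 nuclear receptors 7 rose and 7 fell. NR2F1, an orphan receptor, rose to 12.5 and 12.95 FPKM in ENZ, against 3.18 and 3.31 FPKM in DMSO, and THRB, a thyroid hormone receptor, fell to 1.84 and 2.22 FPKM in ENZ, against 4.46 and 4.52 FPKM in DMSO.

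Of 30 listed antigen presentation genes 13 passed the filter, some partly through the group where they are high, and of these 10 rose and 1 fell with a median log2 change of 0.57. With no filter 13 of the 30 rose and the median was 0.077. TAPBP, which helps load peptides on class I molecules, had 6.01 and 5.78 FPKM in ENZ, against 2.55 and 2.47 FPKM in DMSO. HLA-B had 8.28 and 7.34 FPKM in ENZ, against 3.55 and 3.65 FPKM in DMSO, but class I genes are near-identical and uncertain singly. B2M, the shared light chain of class I, had 49.03 and 48.2 FPKM in ENZ, against 47.9 and 49.3 FPKM in DMSO, with overlapping groups. The median of the 13 was 0.69 in the first ENZ library and 0.46 in the second. PSMB10, an immunoproteasome subunit, was the fall. Interferon-stimulated and nucleic acid sensing genes rose in 20 of 39 cases and fell in 3, or 16 and 5 after quantile normalization. IFI35, an interferon-induced protein, had 10.3 and 8.99 FPKM in ENZ, against 3.68 and 2.96 FPKM in DMSO, and PARP14, an ADP-ribosyltransferase, had 3.26 and 3.71 FPKM in ENZ, against 1.497 and 1.48 FPKM in DMSO. The falls were SOCS2, a brake on growth hormone signalling that overlaps an antisense RNA, and the interferon-induced membrane protein genes IFITM2 and BST2, of which BST2 was not called without the second ENZ or the first DMSO library. Among NF-kB, cytokine and complement genes 17 of 34 rose and 8 fell. C1R, a complement protease, had 13.7 and 12.2 FPKM in ENZ, against 2.28 and 2.60 FPKM in DMSO, and ACKR3, a chemokine scavenger and one of the androgen-repressed list, had 61.7 and 58.2 FPKM in ENZ, against 3.55 and 3.92 FPKM in DMSO. NFKBIA, the inhibitor of NF-kB, fell to 24.9 and 26.1 FPKM in ENZ, against 41.5 and 41.8 FPKM in DMSO.

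Lysosome and autophagy genes rose in 35 of 69 cases and fell in 10, with no member reaching 2-fold on the log2(FPKM + 1) scale. PSAP, which encodes the saposin precursor, had 396 and 372 FPKM in ENZ, against 282 and 269 FPKM in DMSO, and MANBA, a lysosomal mannosidase, had 17.9 and 19.1 FPKM in ENZ, against 8.97 and 9.09 FPKM in DMSO. Both were separated between groups, and 37 list members rose and 5 fell after quantile normalization. Without the first or the second DMSO library 4 and 5 fell. Metallothionein genes MT2A and MT1F fell by 1.28 each on the log2 scale, and MT2A had 123 and 114 FPKM in ENZ, against 283 and 294 FPKM in DMSO; they are near-identical relatives and uncertain. Of 55 antioxidant and xenobiotic enzymes 14 rose and 22 fell, against 22 and 14 after quantile normalization. GCLC, of glutathione synthesis, rose to 20.4 and 22.2 FPKM in ENZ, against 9.13 and 8.85 FPKM in DMSO, and the efflux pumps ABCC4 and ABCC5 moved apart. ABCC4 had 11.3 and 12.8 FPKM in ENZ, against 37.1 and 37.1 FPKM in DMSO, and ABCC5 had 13.8 and 12.3 FPKM in ENZ, against 5.36 and 5.53 FPKM in DMSO.

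Chromatin and clock genes had few large changes. Of 33 Polycomb subunit genes 9 rose and 8 fell, with no 2-fold change, and of 89 remodelling and histone modifier genes 27 rose and 21 fell, with 12 falls after quantile normalization and 17 rises without the second DMSO library. KDM6A, a demethylase of the mark that EZH2 makes, had 54.3 and 58.4 FPKM in ENZ, against 27.2 and 28.2 FPKM in DMSO, a log2 change of 1.00 ± 0.06 (SE), adjusted p = 1.2e-06. PER1, a clock repressor that also responds to steroid receptors, fell to 2.83 and 2.47 FPKM in ENZ, against 7.04 and 6.61 FPKM in DMSO. Zinc finger (ZNF) genes rose in 31.7% of 366 cases and fell in 8.74%, but 38 rose and 57 fell after quantile normalization, so no direction is given for the family. Without the first or the second DMSO library 76 and 71 of them rose. Solute carrier genes rose in 80 of 200 cases and fell in 54.

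**Figure D3:**
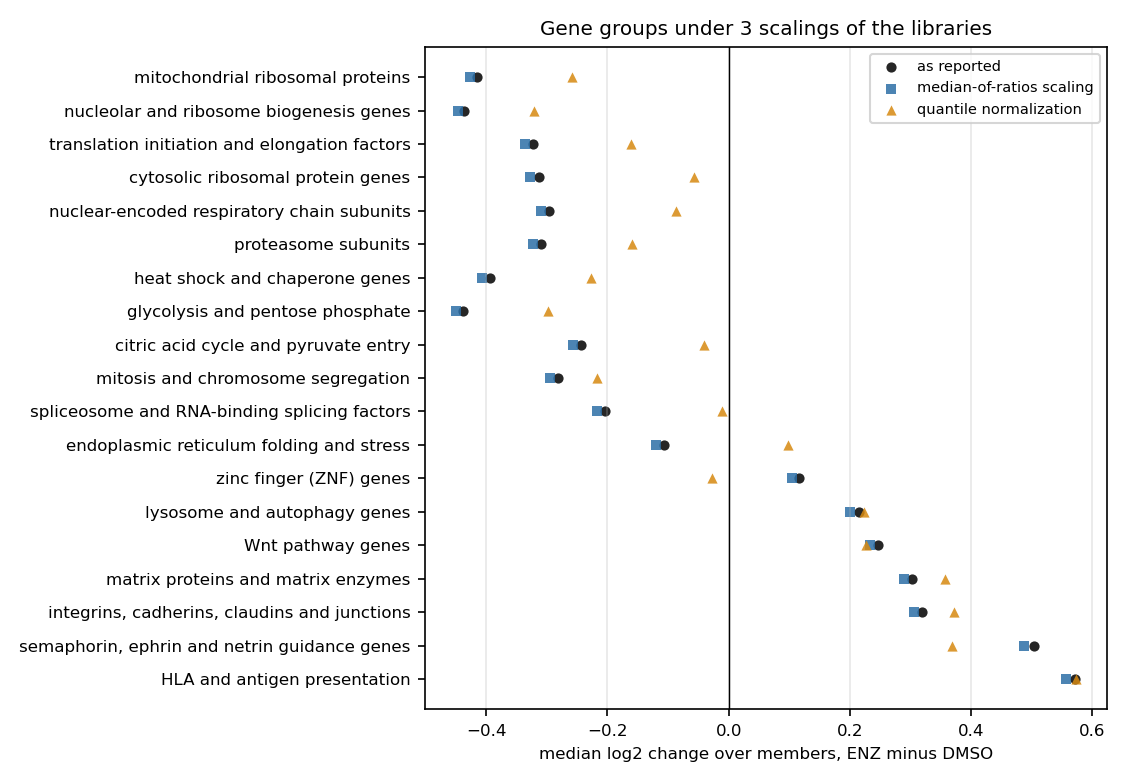
Median log2 change, ENZ minus DMSO, over the members of 19 gene groups with FPKM as deposited (circles), after median-of-ratios scaling (squares) and after quantile normalization (triangles). Quantile normalization moves the falls of ribosomal, respiratory and proteasome genes towards 0 and turns endoplasmic reticulum and zinc finger genes round, while adhesion, guidance and antigen presentation genes stay above 0.

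The same question was asked in 4 libraries that the comparison above does not contrast: Combination against EPZ gives the effect of enzalutamide on cells that also received EPZ6438. There 72.8% of all tested genes were called, 29.2% higher and 43.7% lower. Of the 303 genes at least 2-fold higher with ENZ alone, 275 (90.8%) rose again, 24 were not called and 4 fell. Of the 168 at least 2-fold lower, 161 (95.8%) fell again and 7 were not called. Median-of-ratios scaling moved the median of all genes in Combination minus EPZ to -0.0050, against -0.11 as deposited, and 279 and 160 of these genes were then called the same way. The size of the effect differed often: the difference of the 2 effects was called for 158 of the 303 and 112 of the 168, and for 39.6% of all tested genes. The 303 and 168 were chosen by their change with ENZ alone, which is part of that difference. Their shares are therefore partly fixed by the choice, and the 39.6% is no like baseline. Among the 303 the effect was larger with EPZ6438 in 79 and smaller or opposite in 79, and among the 168 it was larger in 74 and smaller in 38.

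PLA2G2A kept its rise, with 844 and 948 FPKM in Combination, against 11.7 and 9.37 FPKM in EPZ, a log2 change of 6.29 in Combination minus EPZ. STK39 changed by -2.42 there and by -2.46 with ENZ alone, and ELOVL7 by -2.28 and -2.31. SLPI had 182 and 207 FPKM in Combination, against 156 and 157 FPKM in EPZ, a change of 0.31 against 2.61 with ENZ alone. Its change was smaller with EPZ6438, with a difference of -2.30 ± 0.16 (SE), adjusted p = 7.1e-06. IGFBP3 had 2152 and 2331 FPKM in Combination, against 69.2 and 64.1 FPKM in EPZ, a change of 5.05 against 2.34, the larger with EPZ6438. Nucleolar and mitosis genes were also lower in this comparison, with medians of -0.93 and -1.87, against -0.44 and -0.28 with ENZ alone. They fell in 64 of 66 and 58 of 58 cases, where 43.7% of all tested genes fell. The difference of the 2 effects was called for 46 of the 66 and 57 of the 58. These medians are from FPKM as deposited, where the median of all genes was -0.11. Guidance genes rose in 26 of 36 cases and fell in 3.

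**Figure D4:**
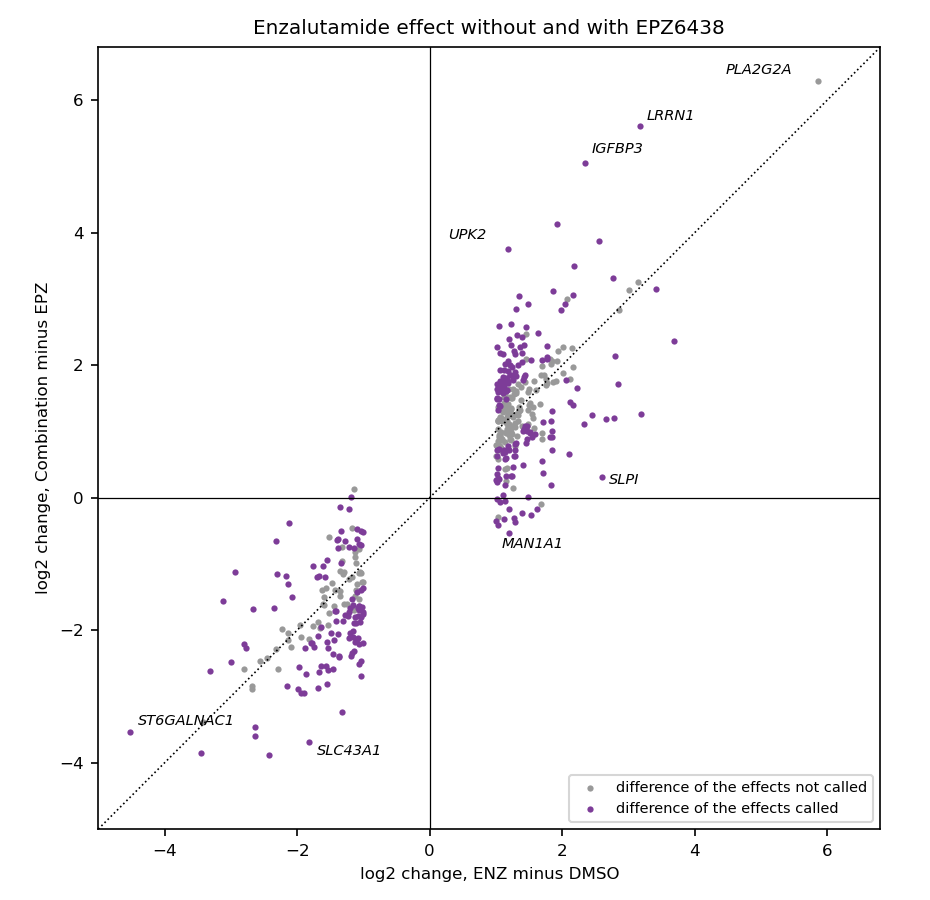
Log2 change in Combination minus EPZ (vertical) against ENZ minus DMSO (horizontal) for the 303 and 168 genes called and at least 2-fold higher or lower with ENZ alone; the axes share no library, and the dotted line marks equal changes. Most points lie at the upper right and lower left; IGFBP3, LRRN1 and UPK2 lie above the line and SLPI and MAN1A1 below it.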

How the data were processed

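RNA-seq of C4-2B cells gave 8 libraries, 2 per group. The authors deposited 1 table of FPKM per gene; STAR and hg38 are named in the submitters' processing notes, while the counter, the annotation and the use of strand were not given in the sources used here. Without counts, depth was estimated from the value of 1 fragment (0.041 to 0.0648 FPKM for 1 kb). That value was read from 493 genes with a single transcript, kept because their low values were whole multiples of the smallest after scaling for relative depth. In 54.6% of these genes the value of 1 fragment lay within about 5% of the one used. Depth is therefore approximate, and no count test was run.

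Rows averaging 1 FPKM or more over the 8 libraries were fitted as log2(FPKM + 1) with limma 3.58.1 (R 4.3.3; expression trend, 4 groups, two-sided, Benjamini-Hochberg adjustment, threshold 0.05). The script was tested on simulated data. Gene lists were described by counts and medians, with no set test. Promoter windows came from RefSeq tables, which hold a window for 9352 of the 11873 distinct symbols tested (1 symbol has 2 rows). Tables and figures were made with Python 3.11.15, pandas 2.3.3, numpy 2.4.6 and matplotlib 3.10.9.

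Genes named were the check genes, the 12 highest and 12 lowest changes outside the androgen lists with groups that do not overlap, up to 3 called members per list in each direction with the most abundant member, and the genes whose 2 enzalutamide effects differed most, less some left out for length with their values known and some that are not reported here. The members and lists were chosen with earlier results of these data known. Alternatives were quantile normalization, scaling by median of ratios, a pseudocount of 0.1, no filter or one at 5 FPKM, a replicate block, each library left out in turn, and a fit restricted to ENZ and DMSO.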

Additional observations from a re-analysis of the deposited data

Results flagged for a closer look

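The enzalutamide effect differed with and without EPZ6438 for 4703 of 11874 tested genes (39.6%) by limma's test of the difference of the 2 effects. The differences named here are Combination minus EPZ less ENZ minus DMSO, on the log2 scale. Among genes changed at least 2-fold with ENZ alone, IGFBP3 had the smallest adjusted p, with a difference of 2.71 ± 0.09 (SE), adjusted p = 2.9e-07, and its rise was larger with EPZ6438. LRRN1 differed by 2.42 ± 0.11 (SE), adjusted p = 1.0e-06, and UPK2, which encodes a urothelial plaque protein, by 2.56 ± 0.14 (SE), adjusted p = 2.2e-06. Both rose more with EPZ6438, and both overlap a gene on the other strand. SLC43A1 differed by -1.87 ± 0.08 (SE), adjusted p = 8.2e-07, a steeper fall with EPZ6438.

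Genes at least 2-fold higher with ENZ alone that fell in Combination against EPZ included DHRS3, a retinaldehyde reductase gene, with a difference of -1.45 ± 0.17 (SE), adjusted p = 0.00015. It had 4.76 and 3.73 FPKM in ENZ, against 1.81 and 1.32 FPKM in DMSO, and 7.26 and 8.27 FPKM in Combination, against 10.6 and 10.7 FPKM in EPZ. MAN1A1, a Golgi mannosidase gene, differed by -1.65 ± 0.12 (SE), adjusted p = 1.1e-05, and NUCB2, the gene of the nesfatin precursor, by -1.38 ± 0.08 (SE), adjusted p = 3.9e-06.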

How the results depend on the processing

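Totals over all tested genes depended on the filter and the pseudocount, and counts within several gene groups on quantile normalization. With the filter at 5 FPKM, where fewer genes were tested, 1980 genes were called higher in ENZ and 178 were 2-fold higher or more. The smaller pseudocount of 0.1 gave 639 at that size. In Combination against EPZ, 5480 genes were higher with no filter and 1857 with the filter at 5 FPKM. Leaving out 1 library at a time gave 2633 to 3235 genes higher, 2623 to 3347 lower, 285 to 341 at least 2-fold higher and 167 to 186 at least 2-fold lower. With the replicate number as a block 3401 genes were higher and 3513 lower. The fit restricted to ENZ and DMSO gave 2936 higher and 3075 lower, against 3316 and 3417 as reported. Deviations of same-numbered libraries correlated by -0.0153 to 0.109. Whether same-numbered libraries were grown or prepared together is not in the labels, and with 2 libraries per group these correlations cannot decide it. After quantile normalization HSPA8 changed sign, to 0.11. Low genes have the least depth behind them, with 1 fragment worth up to 0.0648 FPKM in a gene of 1 kb.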

Other observations

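UGT2B17, which joins glucuronic acid to androgens, had 4.64 and 4.34 FPKM in ENZ, against 0.516 and 0.546 FPKM in DMSO, and its relative UGT2B28 had 0 and 0.225 FPKM in ENZ, against 1.87 and 2.18 FPKM in DMSO. These family members are near-identical and uncertain singly. In steroid metabolism as a whole 5 of 15 tested genes rose and 5 fell, near the shares of all tested genes, and 3 rose after quantile normalization or without the first DMSO library. Of 34 tested BCL2 family and caspase genes 8 rose and 9 fell, and 4 rose without the first or without the second DMSO library. BMF, a death-promoting member, rose to 2.57 and 2.05 FPKM in ENZ, against 0.869 and 0.877 FPKM in DMSO, and BNIP3, of mitochondrial turnover, fell to 42.5 and 43.8 FPKM in ENZ, against 67.97 and 71.3 FPKM in DMSO. Of 16 tested clock genes 3 rose and 4 fell, with 0 and 6 after quantile normalization. PER2, a repressor of the clock, fell to 3.45 and 3.31 FPKM in ENZ, against 5.93 and 5.73 FPKM in DMSO.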
